A study of Mus musculus with 6 samples.

Results

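The small leucine-rich proteoglycans examined here were decorin (Dcn), biglycan (Bgn), asporin (Aspn), lumican (Lum), fibromodulin (Fmod), prolargin (Prelp), keratocan (Kera), osteomodulin (Omd), osteoglycin (Ogn) and nephrocan (Nepn). They were taken as every probe set whose platform annotation gives 1 of these 10 symbols and no other gene, which found 21 probe sets out of 45037 on the array and left no gene of the family list unmeasured. The arrays compared whole pancreas of Hox6 null mouse embryos with that of wild type control embryos, all on the Bl6 strain background and all at stage E12.5, after the onset of pancreas budding, with 3 arrays of each. Hox6 stands for the paralogous homeobox genes Hoxa6, Hoxb6 and Hoxc6. The labels call the arrays biological replicates and do not give the number of embryos per array, their sex, their litters or the alleles used, so the p-values measure only the spread between these samples. All values are log2 expression from RMA, the Affymetrix routine that corrects background, quantile-normalizes the arrays and summarises the probes of a set. A difference of 1 is a doubling on this scale, dim probe sets have their changes understated, and precision is limited by the small number of arrays.

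These proteins are secreted into the extracellular matrix. Each has a core of leucine-rich repeats, and most carry glycosaminoglycan chains: chondroitin or dermatan sulfate on decorin and biglycan, keratan sulfate on lumican, fibromodulin and keratocan. They bind fibrillar collagen and set the spacing and diameter of its fibrils, and several of them bind growth factors of the TGF-beta family. Fibroblasts and other mesenchymal cells are their usual source, whereas nephrocan is known in the mouse as a gene of the early gut endoderm, the sheet from which the pancreatic epithelium buds.

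Nepn had higher log2 levels in Hox6 null than in control pancreas on every array, while Dcn and Lum, and with smaller differences Bgn and Fmod, had lower ones. None of the 21 probe sets passed the test over the whole array at an adjusted p of 0.05 (limma, Benjamini-Hochberg), where 1 of 45037 probe sets passed in all, or 0.00222%. At an unadjusted p under 0.05 there were 11 lower and 2 higher member probe sets, against 6.79% and 8.17% of all probe sets. In 11 of the 21, or 52.4%, every Hox6 null array lay below every control array, and in 2 every Hox6 null array lay above. Over all probe sets these shares were 9.89% and 12.1%. Probe sets of 1 gene measure the same transcripts, so the count by gene is the smaller one: with the probe set of highest mean level for each gene, 4 genes lay below control on all arrays (Dcn, Lum, Bgn and Fmod), 2 above (Kera and Nepn) and 4 overlapped, against 11.7% below and 12.2% above among 18193 genes. In the fit by gene 0 of the 10 passed at an adjusted p of 0.05, where 0.0715% of all genes did. The median change over the 10 genes was -0.45, and over all genes it was 0.03.

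**Figure D1:**
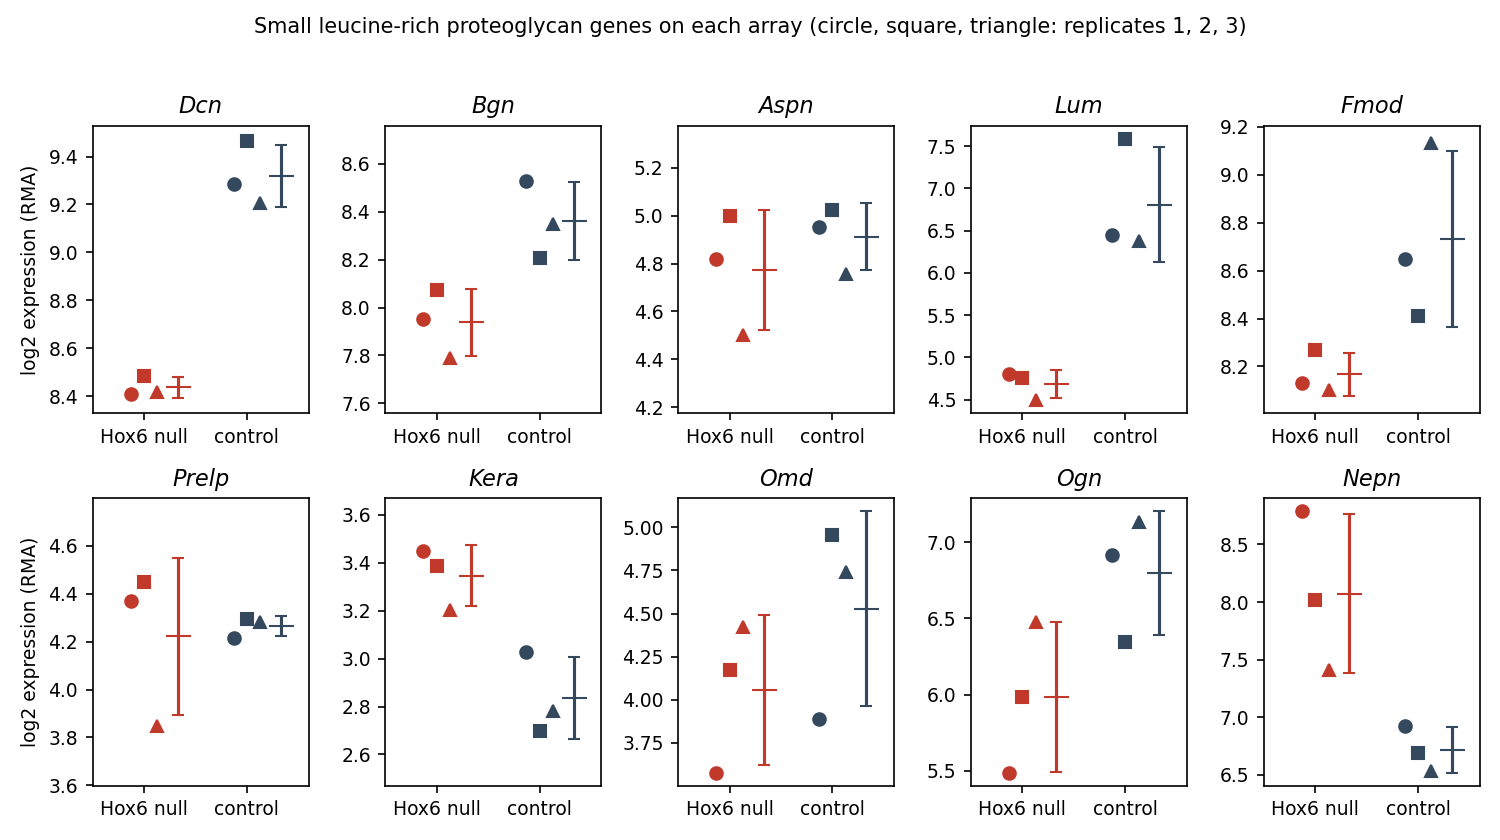
Log2 expression of the 10 genes on each array, with the Hox6 null arrays at the left and the control arrays at the right of each panel; symbols are single arrays, the bar is the group mean with its SD (n = 3), and each panel has its own vertical range. Dcn, Bgn, Lum and Fmod sit lower in every Hox6 null array than in any control array, and Kera and Nepn sit higher.

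The targeted genes and the arrays as a whole set the frame for these values. Hoxb6 read 8.25, 8.71 and 8.91 in the Hox6 null arrays and 8.78, 8.97 and 9.36 in the control arrays, which overlap, and the 3 Hoxc6 probe sets differed by 0.47, 0.73 and 0.13. Since the alleles are not described, these probe sets may lie outside the disrupted sequence and give no check of the genotype. Pearson correlations over all probe sets were 0.980 to 0.987 among Hox6 null arrays and 0.994 to 0.995 among control arrays. The mean level of 14 epithelium markers was 9.40, 9.25 and 8.39 in Hox6 null arrays 1, 2 and 3, against 8.34 to 8.39 in control. By this mean Hox6 null array 3 lay at the control level for epithelium and arrays 1 and 2 above it. Single markers varied on array 3: 5 of the 14, among them Cldn3 and Cldn4, lay above every control, and others, among them Cdh1 and Krt8, below every control. Xist read 6.87, 3.87 and 4.07 in the Hox6 null arrays and 11.2, 10.7 and 4.13 in the control arrays. The Y-linked genes Kdm5d and Eif2s3y read 8.78 to 9.79 and 7.73 to 8.56 over all arrays, those with high Xist included. The Xist level therefore does not by itself give the sex of the embryos on an array. The pancreatic progenitor marker Pdx1 read between 8.24 and 9.97 on all arrays, above the array medians of 5.97 to 6.02. The probe set values come from whole organs, in which fewer cells of a type and less RNA per cell cannot be told apart.

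Promoters are shown for Nepn, the member with the highest positive change, and for 3 members with negative changes, Ogn, Fmod and Bgn, so that their letters and simple motifs can be read. The table used holds a window for 8 members, and Dcn and Lum are not among them. Each sequence is the 250 bases before the transcript start in RefSeq (GRCm38.p6, all on the plus strand), and capitals mark a match to a TATA box (TATAAA) or to a forkhead motif (TGTTTAC), searched on both strands.
Nepn, chr10:52391358-52391607: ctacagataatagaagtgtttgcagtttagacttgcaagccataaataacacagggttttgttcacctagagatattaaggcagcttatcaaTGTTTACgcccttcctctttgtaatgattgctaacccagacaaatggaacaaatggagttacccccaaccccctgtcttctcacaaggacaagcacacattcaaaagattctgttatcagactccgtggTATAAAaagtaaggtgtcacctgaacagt
Ogn, chr13:49607765-49608014: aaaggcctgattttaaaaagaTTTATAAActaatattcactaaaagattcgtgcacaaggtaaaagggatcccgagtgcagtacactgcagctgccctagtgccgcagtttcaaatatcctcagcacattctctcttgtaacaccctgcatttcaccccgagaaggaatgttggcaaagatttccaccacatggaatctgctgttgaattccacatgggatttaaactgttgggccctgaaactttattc
Fmod, chr1:134037004-134037253: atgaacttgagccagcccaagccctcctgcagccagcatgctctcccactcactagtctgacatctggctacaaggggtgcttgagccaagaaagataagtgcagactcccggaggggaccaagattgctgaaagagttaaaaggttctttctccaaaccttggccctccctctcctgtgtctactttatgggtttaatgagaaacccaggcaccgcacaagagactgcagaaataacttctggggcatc
Bgn, chrX:73483351-73483600: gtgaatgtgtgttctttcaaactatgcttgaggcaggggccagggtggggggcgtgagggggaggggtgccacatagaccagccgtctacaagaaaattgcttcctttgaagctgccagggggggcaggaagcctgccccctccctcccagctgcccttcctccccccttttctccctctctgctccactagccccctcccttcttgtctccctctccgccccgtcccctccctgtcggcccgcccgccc
The Nepn window holds TATAAA starting 29 bases before the transcript start and TGTTTAC starting 158 bases before it. Of the 8 members with a window, 3 hold TATAAA (Nepn, Ogn and Aspn) and 1 holds TGTTTAC (Nepn), whereas 12.37% and 3.17% of all 32851 windows do. In Ogn the overlapping matches TTTATA and TATAAA, which are reverse complements, lie 229 and 227 bases before the start. A motif bound by Hox proteins together with Pbx, TGATTNAT on either strand, is in 0 of the 8 and in 2.82% of all windows. The G and C content of the Nepn window was 40.4%. It was 30.0% for Aspn, 38.4% for Omd, 42.0% for Ogn, 42.4% for Kera, 51.2% for Fmod, 55.6% for Prelp and 64.4% for Bgn, so that Nepn lay among the members with negative changes, and the median over all windows was 52.4%. The motifs were chosen with the sequences in view, and a match is a description of letters only.

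Nepn encodes nephrocan, a secreted leucine-rich repeat protein that inhibited TGF-beta signalling in cultured cells. Nepn's single probe set, 1419065_at, read 8.79, 8.02 and 7.41 in Hox6 null pancreas and 6.93, 6.69 and 6.54 in control pancreas. All 3 Hox6 null arrays lay above all 3 control arrays, and the Hox6 null arrays were spread more widely. The means were 8.07 ± 0.69 in Hox6 null and 6.72 ± 0.20 in control (SD, n = 3 each). The difference was 1.36 ± 0.32 (SE), or 2.56-fold, and limma over all probe sets gave an adjusted p of 0.205. Without Hox6 null array 3 the difference was 1.69 and the adjusted p 0.0214, in a fit that called 4.22% of all probe sets. Without Hox6 null array 1, the highest for Nepn, the difference was 0.998 and the adjusted p 0.271.

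The mean of the epithelium markers, like Nepn, was highest on Hox6 null arrays 1 and 2, although the marker Krt19 was not. Of 14 such genes 13 had a positive change, as had all 9 pancreatic progenitor markers (medians 0.62 and 0.77). The summed linear level of the epithelium markers ranged from 6939 to 13227 in Hox6 null and from 6790 to 7158 in control, and no marker is at 0 on the RMA scale. On Hox6 null array 3, where the epithelium mean of 8.39 was at the control level, Nepn was 0.69 above the control mean. The mean log2 level of the pancreatic progenitor markers on that array was 8.41, narrowly above the highest of the controls at 8.36, 8.15 and 8.04. Their summed linear level there was 4236, which lay among the controls at 4307, 3583 and 3577. With the epithelium mean as a covariate the Nepn difference was 0.61 ± 0.26 (SE, with a limma adjusted p of 0.475), against 1.36 without it. That mean was itself higher on Hox6 null arrays 1 and 2 than on any control, so the covariate is not independent of genotype. Intestinal epithelium markers had a median change of 0.16, and all 9 overlapped. Of these, Cdx2 read 4.256 to 5.004 in Hox6 null and 4.181 to 4.638 in control, and Cdx1 stayed at or below 3.68 on all arrays. The parts of epithelium content and of gut tissue in the Nepn values were not tested.

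The genes most like Nepn across the 6 arrays, by the root-mean-square difference between log2 levels centred on each gene's own mean, were Tcf24 (0.165), Mia2 (0.182), Mnx1 (0.186), Pdx1 (0.192) and Cited1 (0.203). Mnx1 and Pdx1 are homeobox genes required for pancreas formation. Pdx1 read 9.97, 9.63 and 8.78 in Hox6 null and 8.62, 8.24 and 8.27 in control. Tcf24 read 7.83, 6.83 and 6.40 in Hox6 null and 5.64, 5.84 and 5.68 in control. As with Nepn, Hox6 null array 1 was the highest and array 3 the lowest of the Hox6 null arrays in each of these 5 genes. The genes were picked for likeness on these same 6 arrays, so the shared order is not a separate result.

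**Figure D2:**
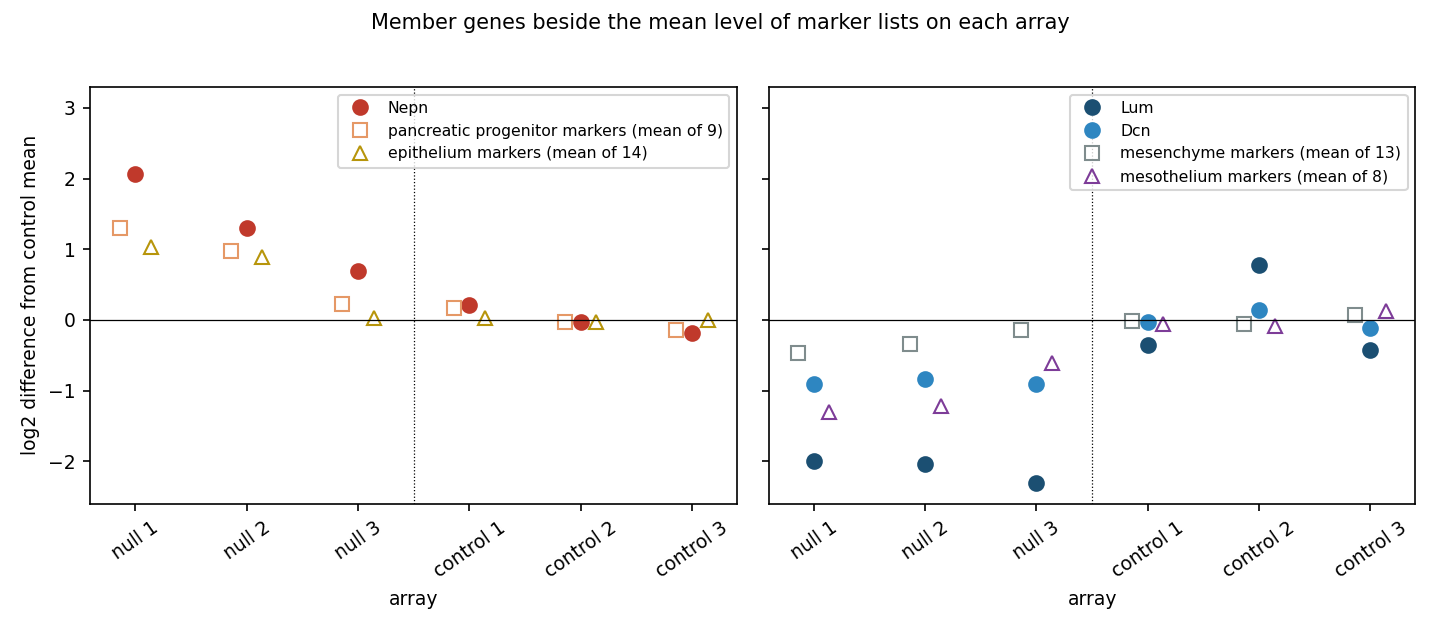
Log2 difference from the control mean on each array for Nepn beside epithelium and pancreatic progenitor markers (left) and for Lum and Dcn beside mesenchyme and mesothelium markers (right); filled points are single genes and open points are means over a marker list. On Hox6 null array 3 the epithelium mean is at the control level, and the pancreatic progenitor mean (8.41) is narrowly above the highest control (8.36). Nepn is 0.69 above its control mean there, and Lum and Dcn are as low as on Hox6 null arrays 1 and 2.

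Among the class I members, which carry chondroitin or dermatan sulfate or, like asporin, are their close relatives, Dcn differed most. Decorin binds type I collagen and TGF-beta. Its brighter probe set, 1449368_at, read 8.41, 8.49 and 8.42 in Hox6 null pancreas and 9.29, 9.46 and 9.21 in control pancreas. The Hox6 null arrays lay close together (SD 0.04) and below the lowest control array. The difference was -0.88 ± 0.11 (SE), a level of 0.543 times control (limma, adjusted p = 0.101). The other Dcn probe set, 1441506_at, lay near the lower end of the scale at 4.17, 4.83 and 3.97 in Hox6 null and 4.29, 4.49 and 4.82 in control, and overlapped, with a difference of -0.21 ± 0.24 (SE). The call for the brighter probe set depended on the fit: its adjusted p was 0.0214 without Hox6 null array 3, 0.0429 among the probe sets at or above the median level and 0.0194 with a trend and a robust variance prior, and those fits called 4.22%, 0.0711% and 0.14% of probe sets.

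Bgn, on the X chromosome, encodes biglycan, the closest relative of decorin. Its 3 probe sets gave differences of -0.42, -0.37 and -0.28, with every Hox6 null array below every control array in each. The brightest, 1416405_at, read 7.95, 8.07 and 7.79 in Hox6 null and 8.53, 8.21 and 8.35 in control. The gap between the groups there, 8.07 against 8.21, is small beside the spread within them, and limma gave an adjusted p of 0.252. Xist, the marker of an inactive X chromosome, differed between the arrays as given above, and with its level as a covariate the Bgn difference was -0.41.

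Aspn encodes asporin, which binds TGF-beta and collagen and bears an aspartate stretch in place of chains. Its probe set 1416652_at read 4.820, 4.996 and 4.500 in Hox6 null and 4.954, 5.024 and 4.755 in control, and the groups overlapped. The difference was -0.14, with a 95% interval of -0.50 to 0.22. The other probe set, 1448421_s_at, stayed at or below 3.09 on all arrays, under the lower quartile of all values on the arrays of 4.21, and its difference was -0.27 without overlap.

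Among the class II members Lum had the lowest change of the family. Lumican, which carries keratan sulfate in the cornea, binds fibrillar collagen. Its single probe set, 1423607_at, read 4.81, 4.76 and 4.49 in Hox6 null pancreas and 6.45, 7.59 and 6.38 in control pancreas. The Hox6 null arrays were close together near the dim end of the scale, and control array 2 stood above the other controls. The difference was -2.12 ± 0.31 (SE), so that the level in Hox6 null was 0.231 times control (limma, adjusted p = 0.118). Without control array 2 it was -1.73, and without Hox6 null array 3 it was -2.02 with an adjusted p of 0.0345. Control array 2 was also the highest for hepatoblast markers: their summed linear level was 9141 there, against 6477 and 5147 in the other controls and 5137 to 7753 in Hox6 null, and their part in the Lum value was not tested.

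Fmod encodes fibromodulin, which competes with lumican for a site on type I collagen. All 6 of its probe sets had negative differences, between -0.81 and -0.13, and in 4 of them the arrays did not overlap. The brightest, 1456084_x_at, read 8.13, 8.27 and 8.10 in Hox6 null and 8.65, 8.41 and 9.13 in control, a difference of -0.56 ± 0.18 (SE; limma, adjusted p = 0.263). Probe sets of the _x_at kind, and likewise _s_at, hold probes that can match other transcripts, and 5 of the 6 Fmod sets end in _x_at. The remaining one, 1415939_at, read 5.21, 5.01 and 5.47 in Hox6 null and 6.26, 5.71 and 6.16 in control, and its difference of -0.81 ± 0.18 (SE; adjusted p = 0.204, and 0.0451 without Hox6 null array 3) was the largest of the 6 in size.

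The other class II members were dim or overlapped. Prelp, whose protein binds heparan sulfate near basement membranes, differed by -0.04 (95% interval -0.43 to 0.35) at 1416322_at and by 0.09 at 1416321_s_at. Omd, known from bone matrix, read 3.58, 4.17 and 4.42 in Hox6 null and 3.89, 4.96 and 4.74 in control, with a difference of -0.47 and a 95% interval of -1.21 to 0.27. Kera, a gene of the corneal stroma, read 3.45, 3.39 and 3.20 in Hox6 null and 3.03, 2.70 and 2.78 in control. The Kera groups did not overlap and differed by 0.51 ± 0.13 (SE; limma, adjusted p = 0.216), but every value lies under the lower quartile of 4.21, in the dim range of the array.

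Ogn, of class III, encodes osteoglycin, also called mimecan, of connective tissue and bone. Probe set 1419663_at read 5.49, 5.42 and 5.15 in Hox6 null pancreas and 6.43, 5.84 and 6.75 in control pancreas, without overlap, a difference of -0.98 ± 0.23 (SE; limma, adjusted p = 0.205). Probe set 1419662_at read 5.49, 5.99 and 6.48 in Hox6 null and 6.92, 6.34 and 7.13 in control, with Hox6 null array 3 above control array 2, and its difference was -0.81 ± 0.29 (SE). The probe sets thus had the same sign and placed Hox6 null array 3 differently, lowest of the arrays in the first and highest of its group in the second. With the epithelium mean as a covariate their differences were -1.21 and -0.29.

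**Figure D3:**
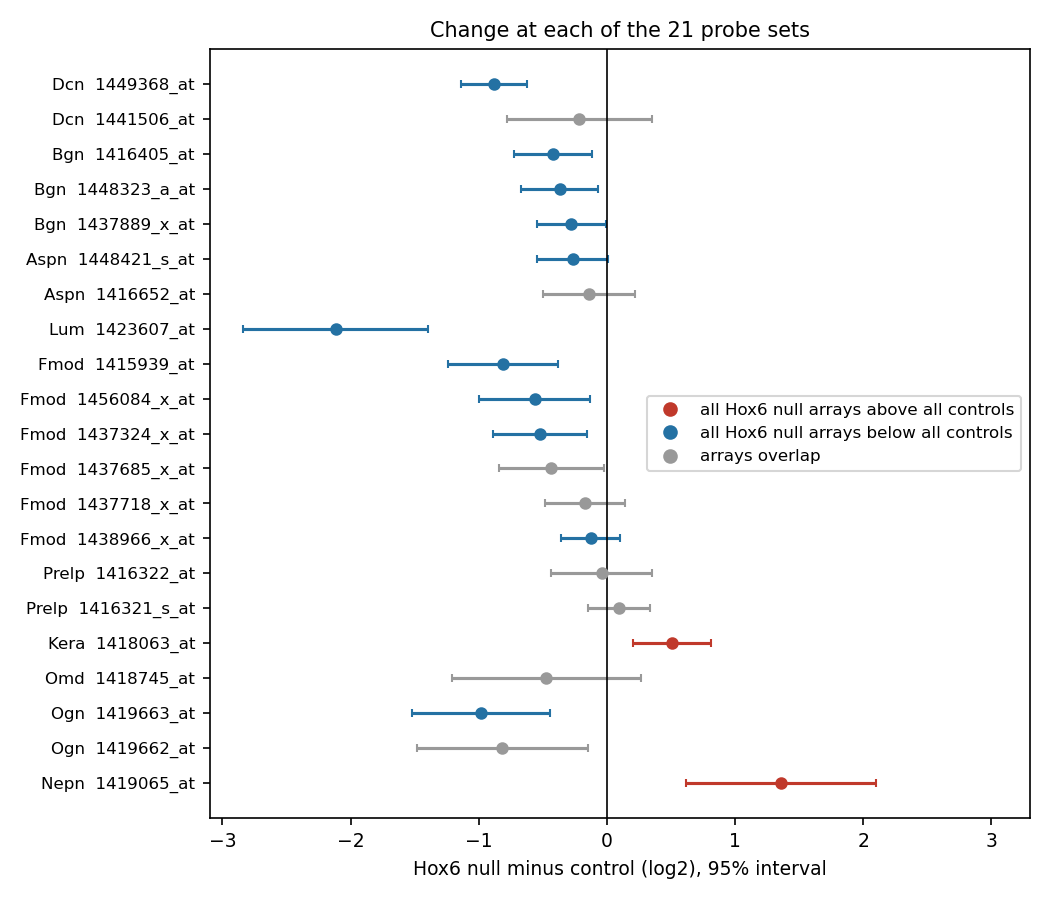
Difference between Hox6 null and control (log2) at each of the 21 probe sets with its 95% interval from limma, grouped by gene; colours show whether the arrays of the groups overlap. All probe sets of Dcn, Bgn, Aspn, Fmod and Ogn lie left of 0, and Kera and Nepn lie right of it without overlap.

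Mesenchyme and mesothelium markers were set beside the lower members. Of 13 mesenchyme markers 12 were negative (median change -0.23), and their summed linear level was 14029 to 16587 in Hox6 null and 17115 to 17558 in control. Twist1, a transcription factor of mesenchyme, read 5.91, 6.04 and 5.86 in Hox6 null and 6.90, 7.21 and 7.60 in control, while Tcf21 on Hox6 null array 3 (11.2) lay among the controls. Of 8 mesothelium markers 7 were negative (median change -1.14), and their summed linear level was 865 to 1435 in Hox6 null and 1762 to 2109 in control. Hox6 null array 3 was the highest Hox6 null array for both summed levels, but not for Dcn (8.42) or Lum (4.49). With the epithelium mean as a covariate the differences of Dcn and Lum were -0.89 and -2.29. The part of mesenchyme or mesothelium content in the lower members was not tested.

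Other cell types were set beside them too. All 8 endothelium markers were negative (median change -0.65), with a summed linear level of 2436 to 3335 in Hox6 null and 4078 to 4400 in control. All 8 macrophage markers were negative as well (median change -0.60), with 2084 to 2724 in Hox6 null and 3621 to 3949 in control. For both lists the summed levels of the groups were fully apart, as for mesenchyme and mesothelium and for Dcn and Lum. Hox6 null array 3 was the highest Hox6 null array for the endothelium (3335) and macrophage (2724) sums too. In the fit by gene 2 genes of each list passed (limma, adjusted p under 0.05), where 0.0715% of all genes did. Over all probe sets 0 genes of either list passed. Smooth muscle markers had a median change of -0.30, with a summed level of 817 to 923 in Hox6 null and 1119 to 1495 in control. Tissues rich in these proteoglycans that could lie near the pancreas had positive medians: the median change was 0.26 for 8 cartilage markers and 0.15 for 3 tendon markers. Matn1 and Matn3 of cartilage and Tnmd and Mkx of tendon stayed under the lower quartile of 4.21 on every array. The other markers of these lists lay above it. The tendon median is the value of Tnmd, in the dim range. Of the cartilage markers 7 were positive, the largest change being 1.04 at Acan, and 1 was negative, Hapln1 at -0.21. The medians for stomach epithelium and hepatoblast markers were 0.25 and 0.03. The stomach marker Sox2 stood out on Hox6 null array 3: it read 2.57, 2.70 and 5.40 in Hox6 null and 3.01, 3.12 and 2.54 in control. Barx1, of the mesenchyme list, was also highest on that array, at 10.7 against 9.31 to 10.0 on the others. The remaining stomach markers were each highest on Hox6 null array 1. What part these cell types have in the lower members was not tested.

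The genes most like Dcn across the arrays, by the same root-mean-square measure, were Ptpre (0.0929), Ctss (0.0933), Pmp22 (0.0995), Thbd (0.110) and Evi2a (0.115). Ctss encodes a lysosomal protease of macrophages and Thbd encodes thrombomodulin of endothelium, and each of the 5 lay lower in every Hox6 null array. Those most like Lum were Cyp1b1 (0.258), Mpo (0.427), Adamts20 (0.442), Hemgn (0.470) and Shisa3 (0.499). Cyp1b1 shared with Lum the high control array 2: it read 3.85, 4.05 and 3.52 in Hox6 null and 4.96, 6.66 and 5.07 in control. Each of these 5 also lay lower in every Hox6 null array than in any control array.

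Members that neighbour each other on a chromosome did not all share a direction. Among protein-coding genes of the RefSeq annotation, 8 of the 10 lie next to another gene of the family. On chromosome 10 Dcn, Lum, Kera and Epyc follow each other: Dcn and Lum differed by -0.88 and -2.12, Kera by 0.51 in the dim range, and Epyc stayed at or below 2.41 in all arrays. On chromosome 13 Ecm2, Aspn, Omd and Ogn follow each other, with differences of -0.08, -0.14, -0.47 and -0.81 at their brightest probe sets. On chromosome 1 Optc, Prelp and Fmod are adjacent and differed by 0.35, -0.04 and -0.56. Bgn on X and Nepn, also on chromosome 10, have no family gene beside them.

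Of 7 further family genes or close relatives measured, none passed over all probe sets (limma), 4 were negative and 3 positive, and the median change was -0.0044. Optc, opticin of the eye's vitreous, was the single gene among them with an unadjusted p under 0.05 in the fit by gene (limma). Of all genes 8.24% were lower and 8.73% higher at that threshold. Optc read 6.44, 6.13 and 6.06 in Hox6 null and 5.88, 5.95 and 5.75 in control. Chad, Chadl, Nyx, Podn, Epyc and Ecm2 overlapped. The difference between these relatives and the 10 members was not tested.

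Collagens are the main binding partners of these proteins. Of 14 fibrillar, fibril-associated and type VI collagen genes, 0 passed over all probe sets (limma), while 7 were lower and 1 higher at an unadjusted p under 0.05 in the fit by gene, against 8.24% and 8.73% of all genes. The median change was -0.34. Col12a1, of a collagen found on the surface of type I fibrils, read 6.27, 6.16 and 6.63 in Hox6 null and 7.47, 7.10 and 7.30 in control, a difference of -0.94 ± 0.16 (SE; adjusted p = 0.150), with the same sign in 3 of its 4 probe sets. Col5a2, Col1a2 and Col11a1 differed by -0.50, -0.40 and -0.59, in each case without overlap. Col1a1 and Col3a1, the bulk fibrillar collagens, differed by -0.16 and -0.25.

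Enzymes that build the chains were examined next. Of 21 genes for chondroitin and dermatan sulfate synthesis 0 passed over all probe sets (limma), and the median change was -0.12. At an unadjusted p under 0.05 in the fit by gene 3 were lower and 2 higher, against 8.24% and 8.73% of all genes. Without overlap of the arrays 5 were lower and 2 higher, against 11.7% and 12.2% of all genes. Chsy3, a chondroitin synthase, read 5.36, 5.22 and 5.28 in Hox6 null and 5.84, 6.06 and 5.94 in control, a difference of -0.66 ± 0.11 (SE; adjusted p = 0.148). Dse, the epimerase that turns chondroitin into dermatan sulfate, averaged 7.39 ± 0.19 in Hox6 null and 7.99 ± 0.13 in control (SD, n = 3 each), without overlap. Csgalnact2 differed by -0.42 and the sulfotransferase gene Chst7 by 0.29. Of 7 genes for keratan sulfate synthesis 0 passed, 1 (B4galt1, a galactosyltransferase, at -0.28) had an unadjusted p under 0.05, and the median was -0.06.

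Growth factors and receptors bound by decorin, biglycan and their relatives had a median change of -0.08 over 14 genes, and 0 passed over all probe sets (limma), with 4 lower and 0 higher at an unadjusted p under 0.05 in the fit by gene, against 8.24% and 8.73% of all genes. Tgfbr2, the type II receptor of TGF-beta, read 7.73, 7.90 and 7.99 in Hox6 null and 8.46, 8.62 and 8.66 in control, a difference of -0.70 ± 0.12 (SE; adjusted p = 0.150). The 3 Tgfbr2 probe sets were all negative, from -0.70 to -0.13. Tgfb1 differed by -0.998 at its brighter probe set and by 0.09 at the other. Bmp4 read 7.82, 7.67 and 7.16 in Hox6 null and 8.05, 8.52 and 8.45 in control, and Tgfb3 differed by -0.87 with overlapping arrays. Egfr, Met, Igf1r, Tlr2 and Tlr4, receptors through which decorin or biglycan act in other settings, overlapped at their brightest probe sets. Over all probe sets of a gene the changes ran from -0.81 to 0.21 for Egfr and from 0.66 to 1.11 for Met. They ran from -0.05 to 0.44 for Igf1r and from -0.21 to 0.21 for Tlr4.

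**Figure D4:**
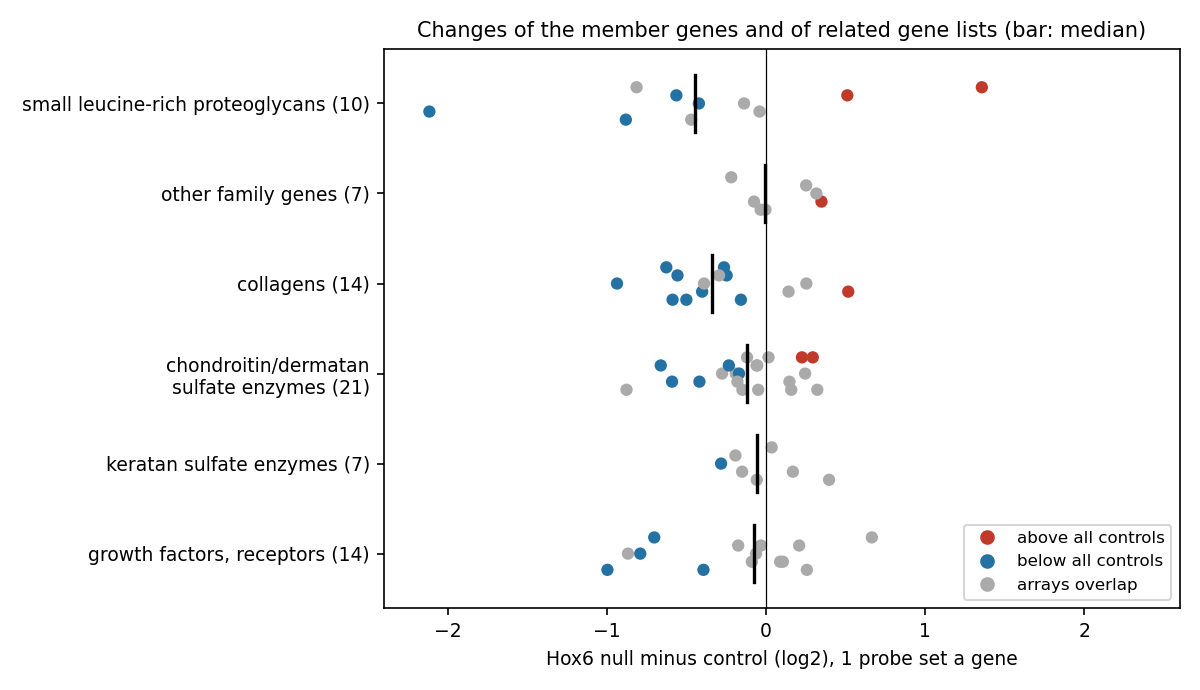
Difference between Hox6 null and control (log2) for each gene of the 10 members and of 5 related lists, 1 probe set a gene; the bar is the list median and colours show overlap of the arrays. The medians are -0.45 for the members, -0.34 for the collagens and between -0.12 and -0.0044 for the other lists, and Nepn at 1.36 lies above every other gene shown.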

How the data were processed

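Gene expression was measured on Affymetrix arrays in 3 Hox6 null and 3 control samples of whole mouse pancreas. Per the labels' protocols, RNA from frozen pancreata was amplified with the NuGEN WT-Pico Ovation system. The values deposited by the authors are log2 expression per probe set, and the submitters' processing notes name RMA, affy and limma without versions. The genome build is not given in the sources used here.

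The table holds 45101 probe sets; 64 array controls were left out. Names come from the platform annotation: 34945 probe sets had 1 symbol, 932 several and 9160 none listed. Genotype was the single term in limma 3.58.1 (R 4.3.3), two-sided, over 45037 probe sets with Benjamini-Hochberg adjustment at 0.05; a second fit used 18193 genes, each by its probe set of highest mean. Errors are moderated standard errors. An exact permutation test of 3 against 3 cannot go below 0.1 and was not run. No pair of arrays shared more than 166 identical values.

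The members and gene lists were chosen with earlier results of these data known. Named were all members, up to 4 genes per list by smallest p, and the 5 genes most like Nepn, Dcn and Lum; other genes were named after their values were seen, including Cdx1, Cdx2, Col1a1, Col3a1, Tcf21, Pdx1 as a marker and genes beside the members on the chromosome. Normalization, filter, variance prior, array weights, block, probe set choice and covariates were varied, and arrays were left out one at a time.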

Additional observations from a re-analysis of the deposited data

How the results depend on the processing

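The signs of 9 of the 10 genes held in all alternatives run. The filter at the median level left out Lum, Omd, Prelp, Aspn and Kera, so these genes were not fitted in that alternative. Prelp, at -0.04, turned to 0.05 (0.0461) with array weights, to 0.03 (0.0262) as the mean of its probe sets and to 0.15 without Hox6 null replicate 3 (range -0.16 to 0.15 with 1 array left out). The count of member probe sets past the adjusted threshold, 0 as reported, was 1 with the filter at the median level (Dcn; 0.0711% of all probe sets called), 2 with a trend and robust variance prior (Dcn and Lum; 0.14% called), and 0 to 4 with 1 array left out, the 4 (Dcn, Lum, Fmod 1415939_at and Nepn) coming without Hox6 null replicate 3, where 4.22% of all probe sets were called and 51 of 162 genes of the other lists (range 0 to 51). The median change over member genes, -0.45, became -0.56 (-0.564) with the filter, which drops dim members, -0.60 (-0.595) with the Xist level as a covariate, and -0.33 to -0.51 (-0.330 to -0.509) with 1 array left out. The cause was not tested. With the epithelium mean as a covariate Omd was at -0.02, Aspn at -0.40 and Prelp at -0.41. Member probe sets without overlap numbered 10 to 14 lower and 2 to 3 higher over the repeated quantile normalization, the median centring and the fits with 1 array left out. With 1 array left out the shares over all probe sets were 12.6% to 18.6% lower and 16% to 25% higher. Deviations of same-numbered arrays from their group means correlated at 0.138, 0.005 and 0.062, which cannot show whether such arrays share a litter or batch. With the replicate block 0 member probe sets passed and the median stayed at -0.45. The adjusted p (limma) was then 0.181 for Dcn, 0.174 for Lum and 0.200 for Nepn. The block lowered the SE from 0.32 to 0.20 for Nepn, 0.31 to 0.24 for Lum and 0.32 to 0.15 for Omd. It raised the SE from 0.110 to 0.119 for Dcn and from 0.130 to 0.142 for Bgn. With 3 arrays a group and RMA's floor, changes of Kera, Prelp, Aspn and Omd are poorly resolved.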
